A study of Mus musculus with 4 samples.

Results

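The keratin gene clusters and the epidermal differentiation complex were examined in the ATAC-seq peaks of HEK293 cells. Members were all peaks whose summit lay in 1 of 3 intervals of GRCh38, set by position and not by any measured value: the type II keratins at chr12:52170000-52960000, the type I keratins with the keratin-associated proteins at chr17:40650000-41620000, and the epidermal differentiation complex at chr1:151980000-153640000. The intervals held 77 of the 48751 peaks, with 29 in the type II keratins, 19 in the type I keratins and 29 in the epidermal differentiation complex. KRT8 and KRT18 lie at the distal end of the type II interval, from position 52890000 on.

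HEK293 is an established human line derived from embryonic kidney, and ATAC-seq marks open chromatin through the DNA that the Tn5 transposase can cut. Of the 4 libraries, 2 were from cells given the scrambled TRAFTAC and 2 from cells given the TRAFTAC against NFkB. All were transfected for 6 h with 1 μg/mL of a plasmid for a dCas9 fused to HaloTag7 together with 25 nM TRAFTAC, and then received 5 ng/mL TNF-α and 25 μM of the HaloTag PROTAC HP14 for 19 h. HP14 is given here for all libraries after the series' design, while the protocol in the labels also names DMSO. There was thus no library without TNF-α. The deposited list was made from all 4 libraries together and names no library, so the 2 TRAFTACs could not be compared and no replicate error exists; the intervals given here cover the error of counting alone, and peaks next to each other may share their openness. A site open in few cells and one weakly open in many cannot be told apart in such a list. The labels name mouse as the organism, but HEK293 is human and the last peak of chromosome 1 ended at 248.9 Mb, in the numbering of GRCh38.

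Keratins form the intermediate filaments of epithelial cells, always as pairs of an acidic type I and a basic type II protein. KRT8 and KRT18 are the pair of simple epithelia such as kidney tubules, whereas KRT5 with KRT14 and KRT1 with KRT10 mark the basal and the upper layers of the epidermis. The keratin-associated proteins crosslink the keratins of hair. The epidermal differentiation complex holds the genes of the cornified envelope, among them those for loricrin, involucrin, filaggrin and the SPRR and LCE families, together with calcium-binding S100 genes that are used in many tissues.

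A human annotation was not used here, so no peak was assigned to a gene start. Gene order alone was taken from the mouse annotation GRCm38.p6 as a guide. From Krt80 to Krt18 it listed 27 coding genes, with Krt8 at place 26 and Krt18 at place 27. From Krt222 to Krt17 it listed 64 coding genes, with the keratin-associated genes between places 13 and 50 and the keratins on both sides of them. From S100a10 to S100a1 it listed 70 coding genes. S100 genes stood at both ends there, with 2 at the start and the others from place 57 on, and the filaggrin-like genes from Tchhl1 to Crnn (places 3 to 9), the Lce genes (places 11 to 34) and the Sprr genes (places 37 to 50) lay between them.

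All 3 intervals held fewer peaks per Mb than the 1 Mb on either side, although none was sparse by the standard of the genome. The type II keratins had 36.7 peaks per Mb (95% exact Poisson interval 24.6 to 52.7), against 47.0 in the left flank (34.5 to 62.5) and 68.0 in the right flank (52.8 to 86.2). The type I keratins had 19.6 peaks per Mb (11.8 to 30.6), against 68.0 on the left (52.8 to 86.2) and 84.0 on the right (67.0 to 104). The epidermal differentiation complex had 17.5 peaks per Mb (11.7 to 25.1), against 52.0 on the left (38.8 to 68.2) and 41.0 on the right (29.4 to 55.6).

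**Figure D1:**
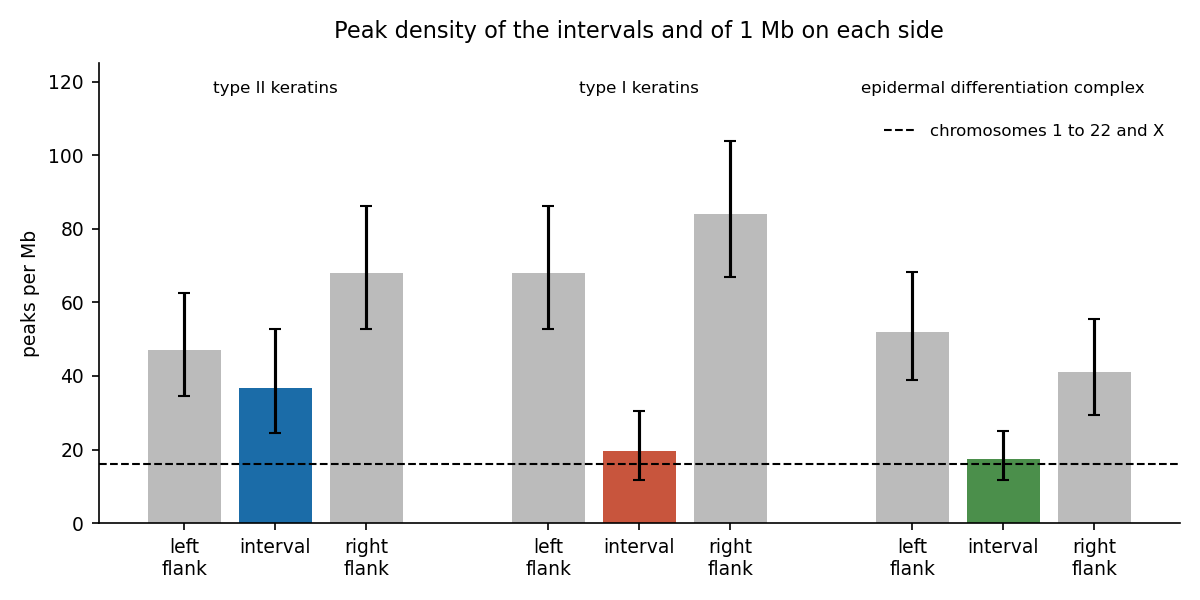
Peaks per Mb (vertical axis) in each interval (coloured bars) and in the 1 Mb on its left and right (grey bars), with 95% exact Poisson intervals as error bars and the mean of chromosomes 1 to 22 and X, 16.0 peaks per Mb, as a dashed line. The type I keratins (19.6) and the epidermal differentiation complex (17.5) stand near the dashed line and well below both of their flanks, and the type II keratins (36.7) stand between the line and their flanks.

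Set against both flanks together, the density was 0.258 times as high in the type I keratins (exact interval of the ratio 0.151 to 0.417), 0.376 times in the epidermal differentiation complex (0.239 to 0.575) and 0.638 times in the type II keratins (0.409 to 0.966). Only the left flank of the type II keratins could not be separated from its interval by the counting interval of the ratio, which was 0.781 (0.474 to 1.27). Of the 3 intervals, the type II keratins were the densest, at 1.87 times the type I keratins (1.02 to 3.54) and 2.10 times the epidermal differentiation complex (1.21 to 3.64). The type I keratins and the epidermal differentiation complex differed by less than their counting error, with a ratio of 1.12 (0.594 to 2.07).

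No interval lay below the mean of the genome. Chromosomes 1 to 22 and X together carried 16.0 peaks per Mb. The ratio to this mean had an exact interval from 1.54 to 3.31 in the type II keratins, from 0.739 to 1.92 in the type I keratins and from 0.733 to 1.57 in the epidermal differentiation complex, so that only the type II keratins stood above it beyond counting error. The mean of chromosome 12 was 16.1 peaks per Mb, under the type II keratins, while the mean of the peak-rich chromosome 17 was 38.0, above the 19.6 of the type I keratins. On chromosome 1 the mean was 20.0 peaks per Mb. When the chromosomes were tiled with windows as long as each interval, 88.9% of 3824 windows had at most the 29 peaks of the type II keratins, 72.1% of 3114 windows at most the 19 peaks of the type I keratins, and 69.3% of 1813 windows at most the 29 peaks of the epidermal differentiation complex. The median windows held 8, 10 and 19 peaks. The tiling kept unsequenced stretches, and 484, 325 and 111 of the windows were empty.

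**Figure D2:**
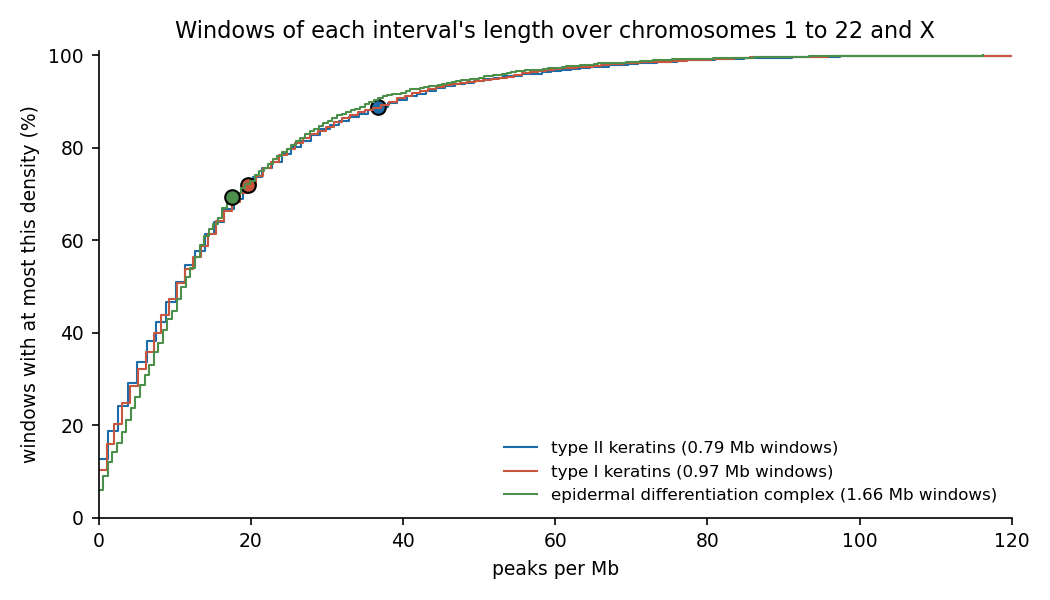
Share of windows (vertical axis, %) with at most a given density (horizontal axis, peaks per Mb), for chromosomes 1 to 22 and X tiled with windows of 0.79 Mb, 0.97 Mb and 1.66 Mb, the lengths of the type II keratins, the type I keratins and the epidermal differentiation complex. Points mark the intervals themselves, at 88.9%, 72.1% and 69.3% of the windows, so each lies above the median window.

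Within the intervals the peaks were not spread evenly. Each interval was cut into 5 equal pieces, of which the first is called the start, the last the end, and the 3 between them the middle. In the type II keratins, the start held 12 peaks, the end 11 and the middle 6. This was 72.8 peaks per Mb in both outer pieces together (46.1 to 109) and 12.7 per Mb in the middle (4.65 to 27.6). In the epidermal differentiation complex the start held 8 peaks, at 24.1 per Mb (10.4 to 47.5), and the end 11, at 33.1 (16.5 to 59.3). Both together had 28.6 per Mb (17.2 to 44.7), and the middle held 10, or 10.0 per Mb (4.81 to 18.5). The interval of each outer piece, and of both together, overlapped that of the middle. Such an overlap does not by itself settle whether the densities differ, and no ratio of them was computed. The type I keratins were crowded at 1 side only. Their end piece held 12 of the 19 peaks, at 61.9 per Mb (32.0 to 108), whereas the start held 2 and the middle 5, at 8.59 per Mb (2.79 to 20.0). This division was chosen after the positions had been seen.

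**Figure D3:**
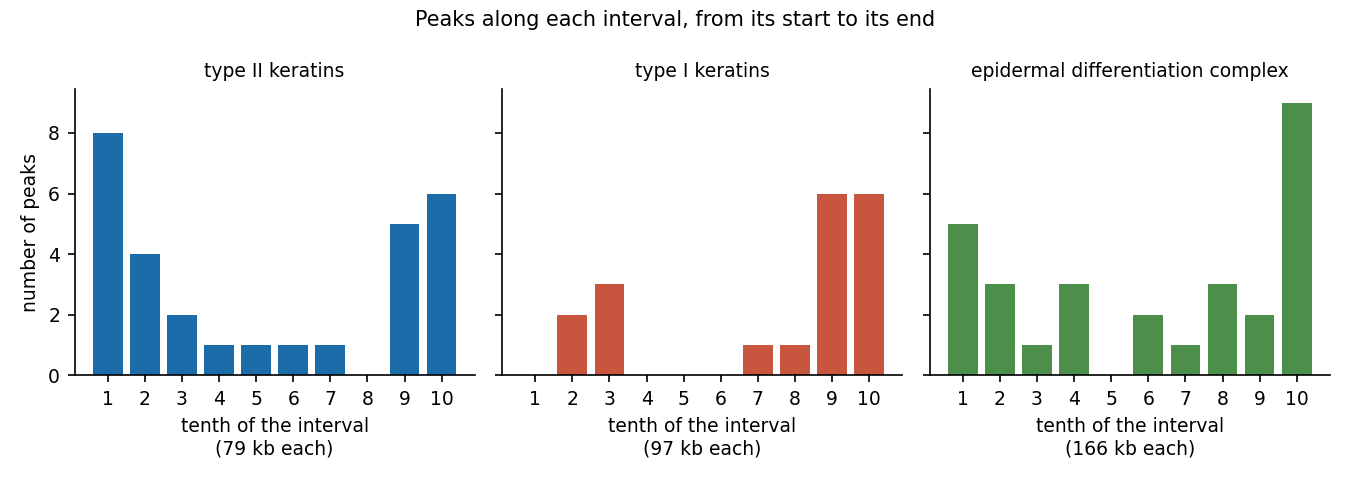
Number of peaks (vertical axis) in 10 equal bins of each interval (horizontal axis, numbered from its start to its end), with bins of 79 kb in the type II keratins, 97 kb in the type I keratins and 166 kb in the epidermal differentiation complex. The type II keratins fall from 8 peaks in bin 1 to 0 in bin 8 and rise to 6 in bin 10, the type I keratins have 6 in each of bins 9 and 10, and the epidermal differentiation complex has 9 in bin 10.

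Each interval also held a long stretch without a peak, picked here as the longest of its gaps. The longest of all lay in the type I keratins, from 40915508 to 41326396 on chromosome 17. It spanned 410.9 kb, or 42.4% of the interval. In the mouse order the keratin-associated genes occupy the middle of this cluster. Of the 48306 gaps between neighbouring peaks on chromosomes 1 to 22 and X, 2.16% were at least as long. In the epidermal differentiation complex the longest stretch ran over 247.6 kb from 152623478 to 152871043. It lay inside the middle piece, and 4.24% of the list's gaps were at least as long. Of the gaps between neighbouring members there, 4 were at least 100 kb long. In the type II keratins the longest stretch ran over 170.5 kb from 52691357 to 52861816, with 6.90% of the list's gaps at least as long. There, 2 gaps were at least 100 kb long. The share of such gaps in the whole list was 13.0%, against 4 of 28, 2 of 28 and, in the type I keratins, 1 of 18.

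**Figure D4:**
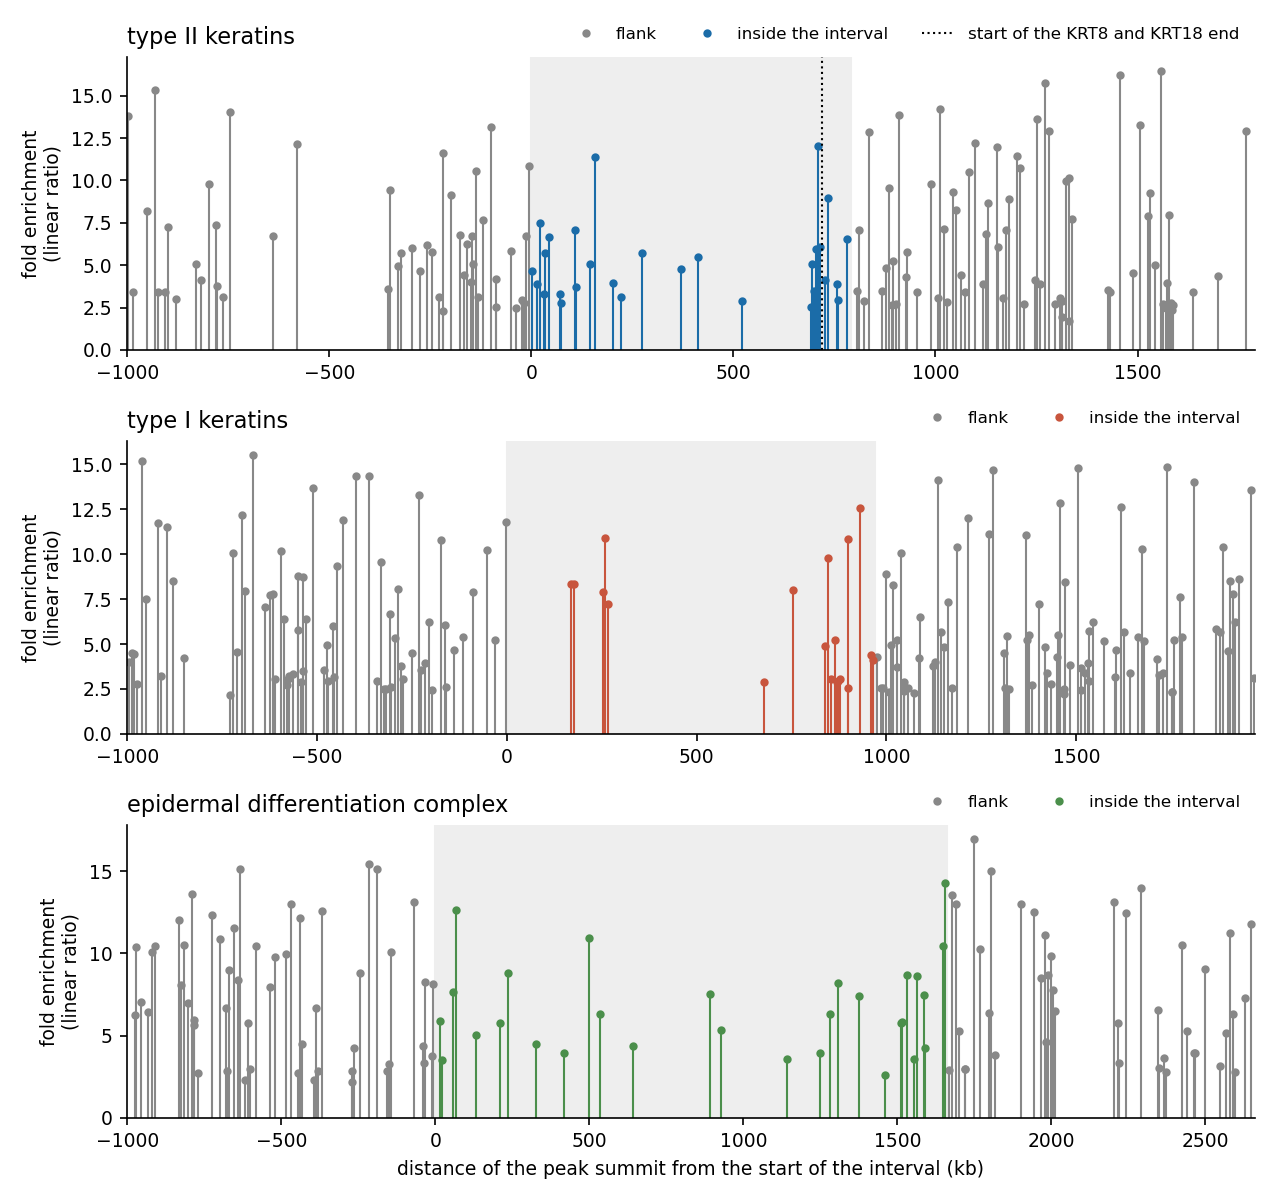
Summit fold enrichment per peak (vertical axis, linear ratio over the local background) against the distance of the summit from the start of the interval (horizontal axis, kb), for the 3 intervals (shaded, coloured stems) and 1 Mb on each side (grey stems). The dotted line marks where the KRT8 and KRT18 end of the type II keratins begins. The shaded areas hold wide empty stretches, the longest of 410.9 kb in the type I keratins, and no stem inside them passes 14.3.

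At the KRT8 and KRT18 end, 5 peaks lay in the last 0.07 Mb of the type II interval, or 71.4 per Mb (23.2 to 167), against 24 peaks and 33.3 per Mb (21.4 to 49.6) before it. The ratio of 2.14 had an interval from 0.639 to 5.73, so a difference in density was not detectable with so few peaks. The summit pileup, which is the number of fragments of the 4 libraries stacked at the summit, was recovered for each peak from its listed fold enrichment and p-value. It ranged from 22 to 327 fragments among the 5 peaks. The peak at chr12:52903439-52905266 was by far the highest, with 327 fragments, a fold enrichment of 8.97 and a width of 1828 bp. Counting error alone gives an SD of 5.53% on such a pileup. The peak at chr12:52948634-52950064 followed, with 112 fragments (SD 9.45%), a fold enrichment of 6.57 and a width of 1431 bp. Its summit lay 90.4% of the way along the peak, close to the distal border.

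The other 3 peaks of this end were low. The peak at chr12:52895360-52896630 was broad, at 1271 bp, with 50 fragments and a fold enrichment of 4.14. The peaks at chr12:52925204-52925490 and chr12:52927365-52927717 had 33 and 22 fragments and fold enrichments of 3.87 and 2.95. Of the 5 peaks at this end 3 were at least 1000 bp wide, whereas among the 24 peaks before it there were 0. In the whole list on chromosomes 1 to 22 and X, 22.8% of the peaks were that wide.

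The border at 52890000 lay inside a dense stretch of peaks, in a gap of 10062 bp. Gaps within this stretch reached 20916 bp, against a median gap of 18.7 kb in the list. From 52861817 to 52950064, a span of 88.2 kb that follows the 170.5 kb empty stretch, there were 11 peaks, and 6 of them lay before the border. The last peak before it, at chr12:52884768-52885297, had 75 fragments and a fold enrichment of 6.08. Next to it stood the peak of highest fold enrichment in the whole type II interval, at chr12:52879420-52880245, with a fold enrichment of 12.1, 287 fragments and a −log10 q-value of 199.8. The tallest and the second tallest pileup of the type II keratins thus lay on opposite sides of the border. In the mouse order the gene before Krt8 is Krt78.

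Outside that dense stretch of peaks, no pileup in the type II keratins passed 90 fragments. After the peak at 52879420, the highest fold enrichments were 11.4 at chr12:52327341-52327979 (90 fragments) and 8.97 at the KRT8 and KRT18 end. The median fold enrichment was 4.14 over the 5 peaks of that end and 4.92 over the 24 peaks before it. In the start piece, 12 peaks had fold enrichments from 2.78 to 11.4 and at most 90 fragments. The 6 peaks of the middle had fold enrichments from 2.87 to 5.74 and at most 41 fragments, with a median width of 321 bp. All 6 lay at the genome-wide background, meaning that the local background MACS2 used was within 1% of its lowest value in the list, 6.32 fragments. On chromosomes 1 to 22 and X, 34.5% of the peaks did so. In the mouse order, the genes between the ends of the cluster include those of the epidermal keratins Krt5, Krt1 and Krt2, among others such as Krt75 and Krt4. The cluster starts there with Krt80 and Krt7. These places are ranks and not distances, so they assign no peak to a gene.

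In the type I keratins, a few peaks lay in the first part and a larger group near the end. The first part had 5 peaks between 40818794 and 40915507, all with fold enrichments between 7.24 and 10.9 and with 52 to 79 fragments. A gap of 74779 bp divided them, after the peak at chr17:40828048-40828530. The highest was chr17:40909381-40910017, with a fold enrichment of 10.9, 79 fragments (SD 11.3%) and a width of 637 bp. Of these 5 peaks 4 lay at the genome-wide background, against 34.5% of the peaks on chromosomes 1 to 22 and X. The 2 peaks at chr17:40818794-40819604 and chr17:40828048-40828530 had the same fold enrichment of 8.34 and the same pileup of 60 fragments, and differed in width, with 811 and 483 bp.

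The end of the type I cluster held both the highest and the lowest fold enrichments. The peak of highest fold enrichment was chr17:41579227-41580045, at 12.6 with 191 fragments and a −log10 q-value of 137.9. The tallest pileup, 253 fragments (SD 6.29%), belonged to chr17:41548578-41549699, with a fold enrichment of 10.9 and a width of 1122 bp. Only 409 bp before it lay chr17:41547861-41548168, which had the lowest fold enrichment of the cluster, 2.53, over a local background of 21.9 fragments. The widest peak of the cluster, chr17:41527231-41528489, measured 1259 bp but had no more than 31 fragments and a fold enrichment of 3.05. The median fold enrichment of the end piece was 4.25 over 12 peaks. In the mouse order the cluster ends with Krt13, Krt15, Krt19, Krt9, Krt14, Krt16 and Krt17. A single peak of 220 bp with 29 fragments, chr17:41326397-41326616, bounded the empty stretch of this cluster.

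In the epidermal differentiation complex, the 3 tallest pileups lay in bins 1 and 10. The peak of highest fold enrichment among all 77 members was chr1:153633639-153634553, at 14.3 with 412 fragments (SD 4.93%), a width of 915 bp and a −log10 q-value of 313.9. Its summit lay within the last 10 kb of the interval. The next were chr1:152047754-152048661, in bin 1 of 10, with a fold enrichment of 12.7 and 244 fragments, and chr1:152480115-152480336, which reached 10.9 with 79 fragments and lay in the middle, in bin 4. The peak at chr1:153627019-153628345 had 268 fragments and a fold enrichment of 10.4. Bin 10 held 9 of the 29 peaks. In the mouse order the complex ends with a row of S100 genes.

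The start of the complex held wide peaks, with a median width of 1450 bp over 8 peaks. The widest member of all was chr1:152213918-152218294, at 4377 bp, with 107 fragments and a fold enrichment of 8.81. On chromosomes 1 to 22 and X, 19 peaks were at least as wide. The peak at chr1:152034518-152037312 measured 2795 bp, with 118 fragments and a fold enrichment of 7.63, and its summit lay 89.8% of the way along. The peaks at chr1:151992397-151994306 and chr1:152110473-152112263 were 1910 and 1791 bp wide.

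The middle of the epidermal differentiation complex held isolated and mostly small peaks. In the mouse order the Lce and Sprr genes lie between the ends of the complex. All 10 peaks of the middle lay at the genome-wide background, against 34.5% of the peaks on chromosomes 1 to 22 and X. Their fold enrichments ranged from 3.55 to 10.9, with a median pileup of 41.5 fragments and a median width of 381 bp. In both outer pieces together, the median pileup was 82.0 fragments and the median width 851 bp over 19 peaks, of which 3 lay at the genome-wide background. The 3 peaks of the complex whose −log10 q-value reached 100 all lay in the outer pieces.

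Over each interval as a whole, the median fold enrichment could not be told from that of the list by its interval. Very strong peaks made up a smaller share than in the list over the 77 members together, but no single interval could be told from the list in this. The median fold enrichment was 4.78 in the type II keratins (95% order-statistic interval 3.69 to 5.95), 5.25 in the type I keratins (3.05 to 8.34) and 5.86 in the epidermal differentiation complex (4.51 to 7.63), against 5.63 on chromosomes 1 to 22 and X. The flanks of the epidermal differentiation complex had a higher median, 7.30 (6.24 to 9.01), but its interval overlapped with that of the complex. The flanks of the type II keratins had a median of 5.70 and those of the type I keratins 5.22. A fold enrichment of at least 10 was reached by 9 of the 77 members, or 11.7%, against 21.9% in the list. In 7 members, or 9.09% (95% Wilson interval 4.47% to 17.6%), the −log10 q-value reached 100, against 21.4% in the list. In the flanks these shares were 23.5% for the type II keratins, 25.0% for the type I keratins and 34.4% for the epidermal differentiation complex.

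The median width was 409 bp in the type II keratins (327 to 696 bp), 513 bp in the type I keratins (369 to 782 bp) and 585 bp in the epidermal differentiation complex (467 to 915 bp), and 590 bp in the list. The intervals of all 3 medians included 590 bp. Of the 77 members, 33 were wider than the median of list peaks with a like pileup. Peaks covered 2.11% of the bases of the type II keratins, 1.11% of the type I keratins and 1.58% of the epidermal differentiation complex. In the flanks the covered share was 4.01%, 5.64% and 3.70%, and on chromosomes 1 to 22 and X it was 1.15%.

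**Figure D5:**
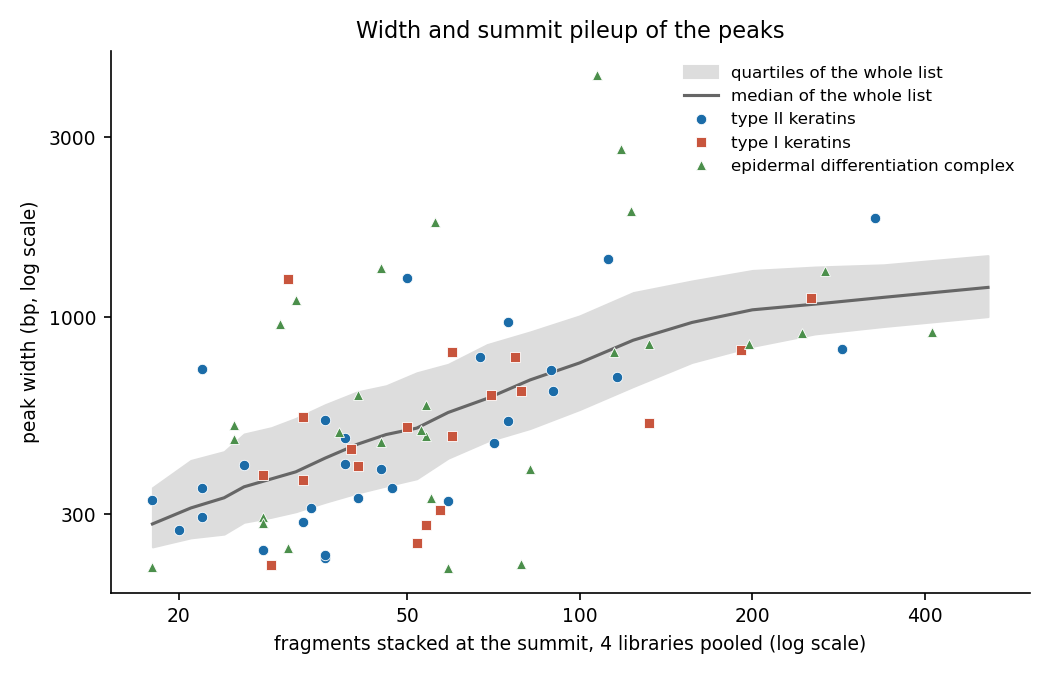
Peak width (vertical axis, bp, log scale) against the fragments stacked at the summit over the 4 pooled libraries (horizontal axis, log scale) for the 77 members, with the median (line) and quartiles (grey band) of the whole list on chromosomes 1 to 22 and X. Members lie on both sides of the line, 33 of them above it, and the epidermal differentiation complex has both the widest member (4377 bp) and narrow ones with 59 and 79 fragments.

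The pileups set the precision of these values. The median pileup was 41.0 fragments in the type II keratins (34.0 to 71.0), 54.0 in the type I keratins (33.0 to 77.0) and 54.0 in the epidermal differentiation complex (38.0 to 107), with 56.0 in the list. The lowest members had 18 fragments, which gives a counting SD of 23.6%. The share of peaks at the genome-wide background was 44.8% in the epidermal differentiation complex (28.4% to 62.5%) and 15.1% in its flanks (9.18% to 23.7%). In the type II keratins it was 24.1% (12.2% to 42.1%) and in the type I keratins 21.1% (8.51% to 43.3%), against 34.5% in the list. The flanks of the type II keratins had 20.0%, and those of the type I keratins 3.95%.

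Just outside the borders, the nearest peaks were not alike. The type I interval began 1893 bp after the summit of a strong peak, chr17:40647357-40648688, with a fold enrichment of 11.8 and 161 fragments, which the interval did not count. Before the type II interval the nearest peak had a fold enrichment of 10.8 and before the epidermal differentiation complex 8.13. After their ends the nearest peaks were weaker, with 3.48 for the type II keratins, 4.31 for the type I keratins and 2.91 for the epidermal differentiation complex.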

How the data were processed

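ATAC-seq libraries of HEK293 cells were analysed as 1 deposited narrowPeak list. According to the methods, reads were trimmed with Trimmomatic, aligned with Bowtie2 to GRCh38.p10, marked for duplicates with Picard and passed to MACS2 in paired-end mode. The handling of reads that match several near-identical gene copies is not given in the sources used here. For each peak the authors deposited the fold enrichment at the summit (a linear ratio), the −log10 p-value, the −log10 q-value, and a score. Columns of single samples number 0.

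Peaks were assigned by their summit in Python 3.11.15 with pandas 2.3.3, intervals were computed with scipy 1.17.1 and numpy 2.4.6, and matplotlib 3.10.9 drew the figures. All positions count from 1. Pileup and local background were recovered for all 77 members from a Poisson model (pseudocount 1, misfit at most 0.001). On 2000 simulated peaks the search returned 100% of the pileups. They were drawn only from peaks already recovered by the search, 99.95% of the list. These peaks were simulated with the same model and pseudocount, so this checks the search and cannot test the model.

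Members and lists were chosen with earlier results of these data known. Peaks named are the 3 of highest fold enrichment and the widest in each interval, those at the KRT8 and KRT18 end, and others chosen after their values were seen. Mouse genes are named as an exception to the planned rule, for their order. No p-values are given, since peaks are not replicates. Mouse RefSeq genes (GRCm38.p6) served for gene order only, and the planned count of gene starts with a peak was not made.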

Additional observations from a re-analysis of the deposited data

How the results depend on the processing

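Of 178 values of 29 results recomputed under alternatives, 177 stayed within the interval of the reported value (for empty stretches, within 1.5 times its length). The alternatives were a minimum −log10 q-value of 5 or 2, assignment by an overlap of at least 1 base, intervals trimmed by 50 kb at both ends, merging of peaks less than 1 kb apart, leaving out peaks whose local background reached 10 times the lowest, and, for the flanks, 0.5 Mb on each side. The exception was the longest empty stretch of the type II keratins, 282.1 kb in place of 170.5 kb when peaks under a −log10 q-value of 5 were left out, which drops peaks by construction. The intervals are wide at these counts, so this says little about stability. With the trimmed intervals, the densities were 29.0 peaks per Mb for the type II keratins, 18.4 for the type I keratins and 16.0 for the epidermal differentiation complex. With the same q-value minimum they were 30.4, 18.6 and 16.9. Alternatives on pileup, background share, outer pieces and empty stretches were chosen after seeing the data. The background limit removed 0 of the 77 members. No library could be left out in turn, since values of single libraries were not analysed here. No paired analysis was possible because 1 pooled set of peaks represents all 4 libraries. How well reads can be placed in the empty stretches was not measured.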

Other observations

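Some peaks in the sparse middle of the epidermal differentiation complex were narrow for their pileup. The peak at chr1:152480115-152480336 was 222 bp wide and had 79 fragments at its summit with a fold enrichment of 10.9. Of the 713 peaks on chromosomes 1 to 22 and X that were at most as wide, 18 had at least as many fragments. The median of the 713 peaks was 26 fragments. Among the 2655 peaks with a pileup within 10% of 79 fragments, the median width was 664 bp and 0.301% were at most 222 bp wide. The peak at chr1:153288697-153288912 was 216 bp wide, against a narrowest peak of 215 bp in the list. It had 59 fragments, near the list median of 56, with a fold enrichment of 8.20. Of the 3144 peaks with a pileup within 10% of 59 fragments, 7 were as narrow. These peaks were picked after their values had been seen, and what sets their width was not tested.

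Several members far apart had identical fold enrichments and p-values. The peaks at chr12:52372653-52372893, chr1:152399224-152399518 and chr1:153229241-153229525 each had 28 fragments and a fold enrichment of 3.96, and chr1:152515268-152515734 and chr1:153260896-153262243 each had 45 fragments and 6.29, with widths of 467 and 1348 bp. All of these lay at the genome-wide background, where peaks with the same number of fragments over the same local background have the same fold enrichment.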
